A study of Rattus norvegicus with 10 samples.

Results

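The nuclear genes of respiratory complexes I, II and III and of ATP synthase were examined in fetal rat hearts, and the mRNA of nearly all of them was lower after maternal hyperglycemia. Genes were chosen by symbol, namely all that start with Nduf (without the Ndufaf assembly factors), Uqcr or Atp5, together with Sdha, Sdhb, Sdhc, Sdhd and Cyc1. This gave 71 of the 18025 genes listed, and all 71 passed a filter on low values (a mean FPKM of 0.1 or more across the libraries), as did 14542 genes in all. FPKM is the number of read fragments scaled by the length of the gene and by the reads of the library. By known function, 65 of the 71 belong to the complexes (36 to complex I, 4 to complex II, 9 to complex III and 16 to ATP synthase). The other 6 were caught by their symbols, and they are an inhibitor of ATP synthase (Atp5if1), a subunit of complex IV and its paralogue (Ndufa4 and Ndufa4l2) and 3 copies of subunit genes (Ndufa10l1, Ndufa13-ps1 and Atp5hl1). Genes of mitochondrial DNA were searched for by symbol and none was found among the genes listed, so the subunits they encode were not analysed here.

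Wild-type Sprague-Dawley rats were used, and all dams were 3 months old and mated with normoglycemic males. Dams of the HG group were injected with streptozotocin, which destroys the insulin-producing cells of the pancreas, on 3 days in a row, and dams of the CON group received only its solvent, citric acid buffer. Diabetes was taken as a non-fasting blood glucose above 16 mM on day 7 after injection, and hearts were taken at embryonic day 19.5, 5 libraries per group. By the Methods the streptozotocin was given after mating, to pregnant animals, although the study elsewhere places the hyperglycemia before pregnancy. The labels state neither the sex of the fetuses nor which hearts share a litter or were pooled, and the Methods mention both hearts and a pool of RNA, so that p-values measure the spread between these libraries, which may be partly technical. The read totals behind the FPKM, recovered from the values themselves and almost all on listed genes, were 16680028 to 19118401 per library. Between 16041 and 16313 genes were above 0.

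The respiratory chain sits in the inner mitochondrial membrane. Complex I takes electrons from NADH and complex II takes them from succinate, both hand them to ubiquinone, and complex III passes them on to cytochrome c. Complexes I and III pump protons while complex II does not, and ATP synthase lets the protons flow back through a rotating ring and makes ATP from ADP. The heart has a very high content of these complexes, and its use of oxidative metabolism rises around birth.

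Transcripts of the 4 complexes were lower in every HG library than in any CON library when summed (the plot of summed FPKM). Summed over the 65 genes, they reached 27646, 28210.5, 27010.4, 26784 and 26029 FPKM in the CON libraries. The HG libraries held 21686, 21832, 21704, 22728 and 21906 FPKM. The groups did not overlap, and the mean of 21971 ± 432 in HG was 19.0% below the 27136 ± 834 of CON (SD, n = 5 per group). As a share of all FPKM of a library, the genes held 5.83 ± 0.0893% in CON and 4.85 ± 0.0713% in HG. By complex, the sum was 19.8% lower for complex I, 19.2% for complex II, 20.6% for complex III and 18.2% for ATP synthase. The labels give heart tissue as the source, while the study also describes its list of changed genes as coming from isolated fetal cardiomyocytes, and which of these the libraries hold could not be settled. In either case many cells were measured together, and fewer cells rich in mitochondria and less of this mRNA per cell cannot be told apart.

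**Figure D1:**
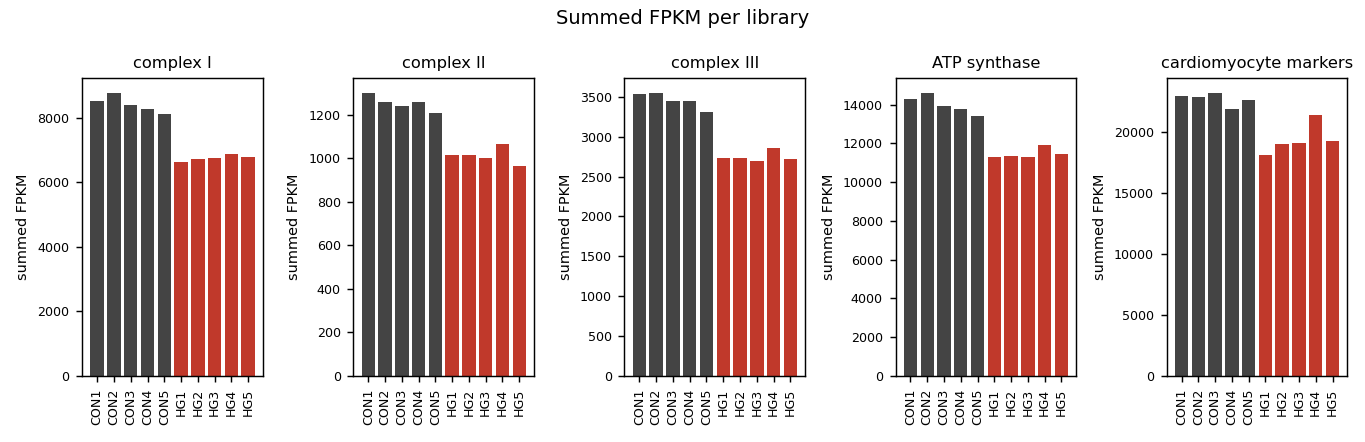
Summed FPKM of the subunit genes of each complex and of 12 cardiomyocyte marker genes, 1 bar per library (grey, CON; red, HG; y axes start at 0). For each complex, all 5 HG bars are shorter than all 5 CON bars, and the marker bars of HG4 (21406) and CON4 (21923) lie closest to each other.

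Gene by gene, 65 of the 71 members fell in HG with an adjusted p under 0.05, and 0 rose (limma, two-sided, on log2(FPKM + 0.1), Benjamini-Hochberg over 14542 genes). At an unadjusted p under 0.05, 66 were lower and 0 higher, and voom on recovered reads called 66 lower and 0 higher. Over all genes tested, 11.8% were lower and 28.4% higher. The median of the log2 fold change of HG against CON (log2FC below, with SE for its standard error) was -0.30 over the members and 0.09 over all genes. Members are abundant, and of the 711 genes whose mean FPKM was 100 or more, 33.5% were lower, against 60 of the 62 members at that level. Every HG library lay below every CON library for 61 of the 71 members, as for 8.12% of all genes. A 2-fold change with an adjusted p under 0.05 was found in 0 members, with limma and with voom, and in 1.94% of all genes. The decreases were thus small and even, from 10.9% to 30.5% among the 65 subunit genes, with a median coefficient of variation within a group of 4.81% in CON and 4.44% in HG.

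**Figure D2:**
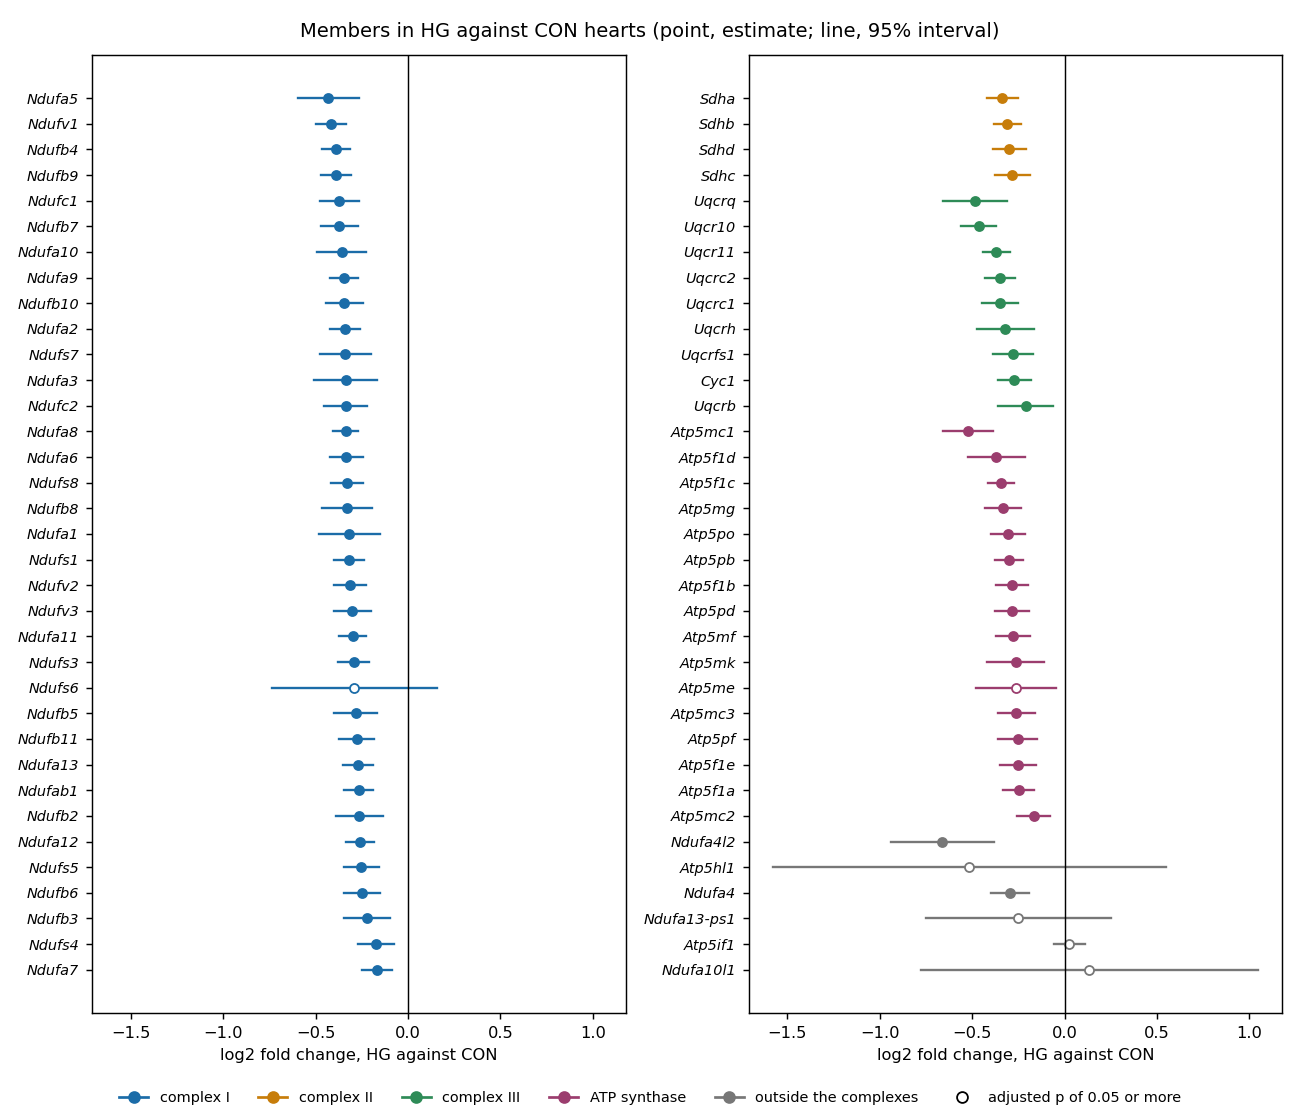
Log2FC of HG against CON for 70 of the 71 members, grouped by complex (point, limma estimate; line, 95% confidence interval; open point, adjusted p of 0.05 or more). All 64 subunit genes drawn lie left of 0, and only Ndufs6 and Atp5me among them have open points.

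**Figure D3:**
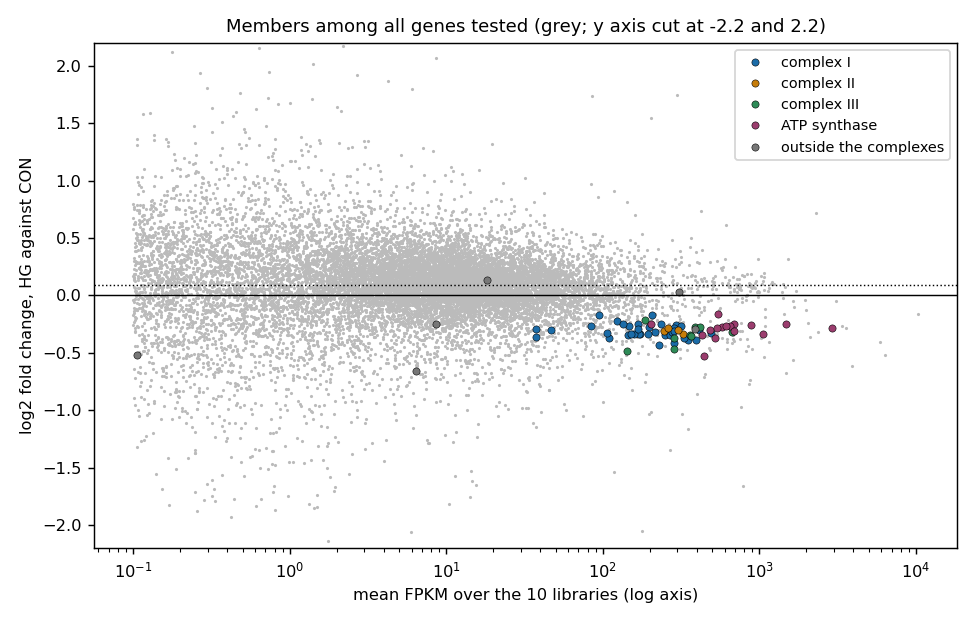
Log2FC of HG against CON against the mean FPKM over the 10 libraries (log axis) for all genes tested (grey) and the members (coloured by complex). The dotted line marks the median of all genes at 0.09, and the subunit genes form a narrow band between -0.52 and -0.17.

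The scaling of the libraries moved the size of the decrease but not its direction. With median-of-ratios factors, the median of all genes went from 0.09 to 0.01, 66 members were lower against 17.5% of all genes, and the median of the members was -0.39. After quantile normalization 63 members were lower against 15.9% of all genes, with a median of -0.24. Of all called genes, 70.7% were higher as deposited, 47.1% under the first and 53.0% under the second of these scalings. No member was higher under either scaling, and all 65 subunit genes had a log2FC below 0.

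Complex I is the entry point for electrons of NADH, and 35 of its 36 measured subunits fell, with a median log2FC of -0.32. Its NADH-binding module holds the flavin and most iron-sulfur clusters, and 9 of the 10 genes of this module were lower. Ndufv1 (293655), which carries the flavin that accepts the electrons, stood at 339, 312, 326, 329.7 and 328 FPKM in CON. It stood at 253, 248, 239.7, 255 and 229 FPKM in HG. All HG values were below all CON values, and Ndufv1 fell by 25.1% (log2FC -0.42, SE 0.0379, adjusted p = 8.90e-06). Ndufs1 (301458), the largest iron-sulfur subunit of this module, had 325, 305, 299.7, 302 and 301 FPKM in CON and 256, 240.3, 237, 258 and 240.0 FPKM in HG. The gap between the groups was wider than the range inside either, and the log2FC was -0.32 (SE 0.0373, adjusted p = 5.67e-05). The smallest decreases of complex I also lay in this module, with log2FC of -0.17 for Ndufa7 and for Ndufs4, the latter a late-assembled subunit known from inherited complex I deficiency.

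All 6 genes of the quinone-binding module fell, which passes electrons to ubiquinone. Ndufa5 (25488), an accessory subunit, had 251, 306, 250.02, 255 and 243 FPKM in CON and 182, 176, 186, 197 and 227 FPKM in HG. The highest value of each group was in CON2 and in HG5, and the log2FC of Ndufa5 was -0.43 (SE 0.0756, adjusted p = 0.000829), the largest decrease in complex I.

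The membrane arm pumps the protons, and its nuclear-encoded part consists of accessory subunits around the core proteins made inside the mitochondrion. All 20 of its genes fell. Ndufb4 (288088) had 393, 402, 412, 388 and 382 FPKM in CON and 298, 306, 313, 303 and 287 FPKM in HG. Ndufb9 (299954) had 456, 473, 452, 440.2 and 429.6 FPKM in CON and 338, 333, 363, 339.9 and 344 FPKM in HG. Both accessory subunits separated the groups widely, each with a log2FC of -0.39 (adjusted p = 7.79e-06 for Ndufb4 and 1.16e-05 for Ndufb9). Ndufb8 (293991), the most abundant mRNA of complex I, went from 545 ± 31.3 to 434 ± 39.5 FPKM (log2FC -0.33, adjusted p = 0.00136).

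Complex II, succinate dehydrogenase, works in the citric acid cycle and in the respiratory chain, and all 4 of its genes fell to a similar degree. Sdha (157074), the flavoprotein that oxidizes succinate, had 364, 347, 368, 375 and 355 FPKM in CON and 291, 295, 289, 294 and 264 FPKM in HG. The value of HG5 stood apart from the other HG values on the low side, and the log2FC was -0.34 (SE 0.0388, adjusted p = 4.76e-05). Sdhb (298596), which carries the iron-sulfur clusters, had 281, 274, 258, 273 and 267 FPKM in CON and 219, 215, 220.5, 225 and 212 FPKM in HG, a log2FC of -0.31 (adjusted p = 2.74e-05). The membrane anchors Sdhc and Sdhd went from 285 ± 13.8 to 234 ± 10.8 FPKM and from 336 ± 13.7 to 273 ± 12.8 FPKM. Their log2FC were -0.28 for Sdhc and -0.30 for Sdhd (adjusted p = 0.000321 and 0.000159). Complex II is the one complex here whose subunits are all encoded in the nucleus, and its median of -0.30 lay inside the range of the other complexes.

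Complex III carries electrons from ubiquinol to cytochrome c, and all 9 of its nuclear genes fell, with a median of -0.35. The redox subunits were Uqcrfs1 (291103), the Rieske iron-sulfur protein, and Cyc1 (300047), cytochrome c1. Uqcrfs1 had 485, 430.4, 480.2, 471 and 442 FPKM in CON and 384, 393, 378, 405 and 345 FPKM in HG, and Cyc1 went from 422 ± 12.1 to 350.1 ± 18.6 FPKM. Neither gene overlapped between the groups, and the log2FC were -0.28 for Uqcrfs1 (adjusted p = 0.000908) and -0.27 for Cyc1 (adjusted p = 0.000322). Uqcrc1 (301011), a core protein, went from 407 ± 14.5 to 319.8 ± 19.5 FPKM (log2FC -0.35, adjusted p = 0.000107).

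The largest decreases of complex III were in small subunits without a redox group. Uqcr10 (685322) had 319.7, 352, 327, 333 and 310.3 FPKM in CON and 242, 240.2, 226, 255 and 228 FPKM in HG. Uqcrq (497902), which sits near the ubiquinone-binding cytochrome b, had 161, 145, 169, 190.1 and 170.3 FPKM in CON and 127, 129, 125, 117 and 99.4 FPKM in HG. The groups did not overlap in either gene, and the log2FC were -0.46 for Uqcr10 (SE 0.0439, adjusted p = 1.15e-05) and -0.48 for Uqcrq (SE 0.0792, adjusted p = 0.000524). Uqcrh, the most abundant mRNA of complex III, went from 738 ± 65.7 to 591 ± 54.6 FPKM (log2FC -0.32, adjusted p = 0.0035). Uqcrb was the one gene of this complex whose groups overlapped, at a log2FC of -0.21 (adjusted p = 0.0276), and it was called lower in 18 of the 24 alternatives.

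ATP synthase consists of a catalytic F1 head, a ring of c subunits in the membrane, a stalk that holds the head still and small membrane subunits that bend the membrane. Of its 16 genes, 15 fell, with a median of -0.28. Atp5f1b (171374), the catalytic beta subunit and the most abundant mRNA of all 71, had 3206, 3224, 3303, 3257 and 3115 FPKM in CON and 2628, 2707, 2541, 2737 and 2595 FPKM in HG. The groups were far apart, and the log2FC was -0.29 (SE 0.0400, adjusted p = 0.000178), but after quantile normalization it was -0.13 (adjusted p = 0.117). Atp5f1a (65262), the alpha subunit, went from 1605 ± 55.9 to 1352 ± 40.3 FPKM (log2FC -0.25, adjusted p = 0.000408). All 5 genes of the head and central stalk and all 4 of the peripheral stalk fell.

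The c ring is made of a protein that 3 genes encode, and the mature protein from Atp5mc1, Atp5mc2 and Atp5mc3 is known to be the same. Atp5mc1 (29754) had 576, 549, 513, 476 and 515 FPKM in CON and 367, 361, 338, 416 and 346 FPKM in HG. Atp5mc2 (171082) had 628, 601, 566, 556 and 549 FPKM in CON and 512, 526, 518, 522 and 503 FPKM in HG, and Atp5mc3 (114630) went from 962 ± 52.8 to 802 ± 35.6 FPKM. All 3 genes fell, and they held the largest and the smallest decrease of the 65 subunit genes, with log2FC of -0.52 for Atp5mc1 (SE 0.0625, adjusted p = 6.21e-05), -0.26 for Atp5mc3 (adjusted p = 0.000884) and -0.17 for Atp5mc2 (SE 0.0413, adjusted p = 0.00711). After quantile normalization the value of Atp5mc2 was -0.07 (adjusted p = 0.171).

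A ratio of 2 genes within a library does not depend on the scaling of that library by a single factor, so a few such ratios were formed. The genes were chosen after their changes were seen, and the ratios are given as a description, without p-values. The ratio of Atp5mc1 to Atp5mc2 was 0.917, 0.913, 0.906, 0.857 and 0.938 in CON and 0.717, 0.687, 0.652, 0.797 and 0.687 in HG. The ranges did not overlap, and the ratio was lower in HG by 0.36 on the log2 scale. The ratio of Atp5mc1 to Atp5mc3 went from 0.547 ± 0.0363 to 0.455 ± 0.0226 (SD, n = 5 per group), and the ratio of Atp5mc3 to Atp5mc2 from 1.66 ± 0.0712 to 1.55 ± 0.0735.

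**Figure D4:**
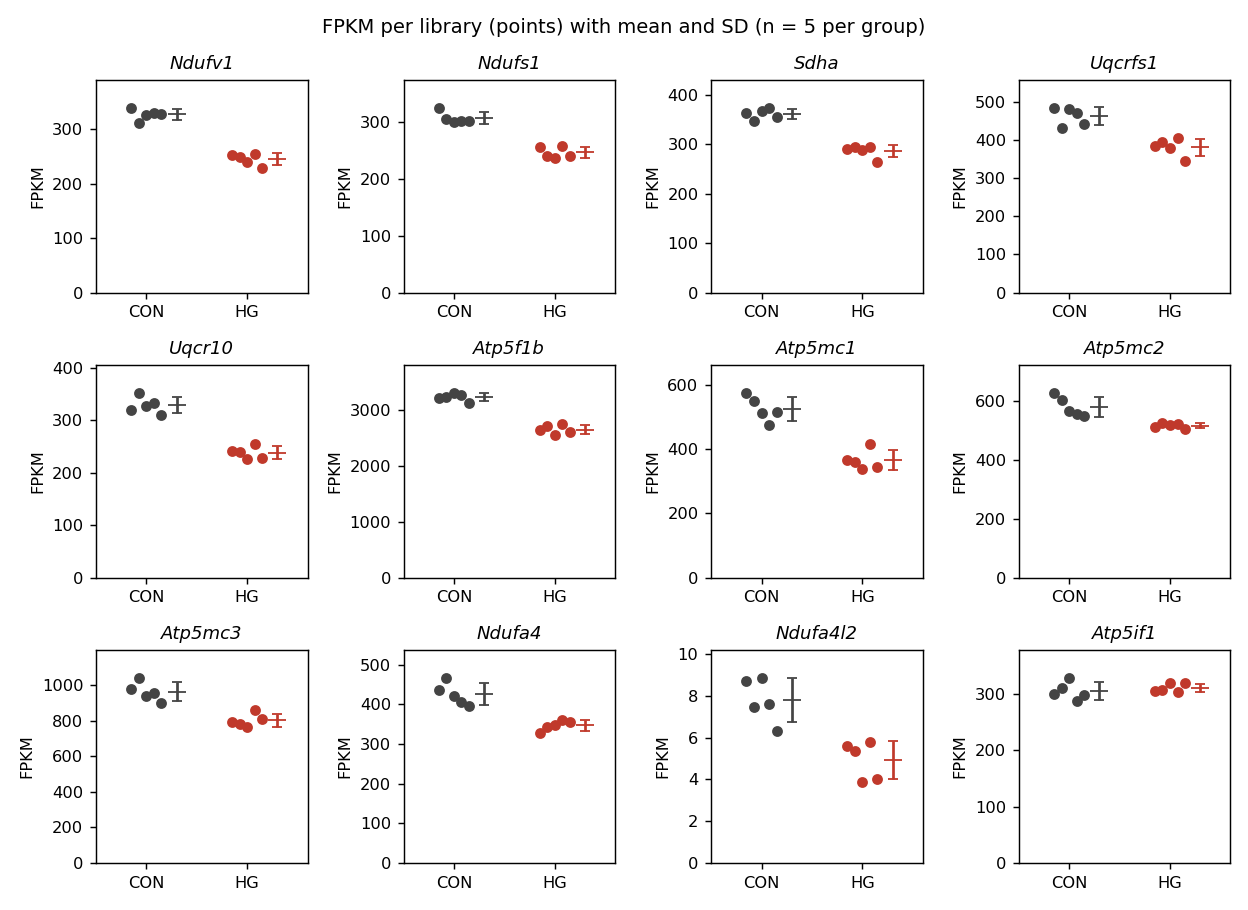
FPKM of 12 members in each library (points; grey, CON; red, HG) with the mean and SD of each group (n = 5; y axes start at 0). The groups are apart in every panel but that of Atp5if1, where the HG values of 302 to 318 lie inside the CON range of 286 to 328.

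Of the 6 members outside the complexes, 2 fell. Atp5if1 (25392) encodes the inhibitor that stops ATP synthase from splitting ATP when the proton gradient collapses. It had 300.5, 311, 328, 286 and 298 FPKM in CON and 306, 307, 318, 302 and 318 FPKM in HG. The HG values lay within the CON range, and the log2FC was 0.03 (95% confidence interval -0.06 to 0.11, adjusted p = 0.627), with a value of -0.06 under median-of-ratios factors and 0.10 in the quantile-normalized data. Set against its target, which was lower in HG, the ratio of Atp5if1 to Atp5f1b went from 0.0947 ± 0.00429 to 0.118 ± 0.00624, and that to Atp5f1a from 0.190 ± 0.0118 to 0.230 ± 0.0115. These ratios restate the values of their genes and are given without p-values.

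Ndufa4 (681024), long counted to complex I and now known as a subunit of cytochrome c oxidase, went from 426 ± 28.0 to 347 ± 13.3 FPKM (log2FC -0.29, adjusted p = 0.000478). Its paralogue Ndufa4l2 (100362331), known as a gene induced by low oxygen that restrains complex I activity, was far less abundant. It had 8.73, 7.45, 8.87, 7.61 and 6.33 FPKM in CON and 5.59, 5.35, 3.89, 5.81 and 4.00 FPKM in HG, from 78 to 185 reads per library. The groups did not overlap, and the log2FC of -0.66 (SE 0.128, adjusted p = 0.00159) was the largest decrease of all 65 members that fell. The ratio of Ndufa4l2 to Ndufa4 was 0.0183 ± 0.00231 in CON and 0.0143 ± 0.00283 in HG.

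The copies of subunit genes did not pass the test, and reads from such copies and from their parent genes cannot always be parted. Ndufa10l1 (316632) varied from 8.93 to 42.1 FPKM within CON and from 8.32 to 20.6 FPKM within HG (log2FC 0.13, adjusted p = 0.825). Ndufa13-ps1 (314759) had a mean of 9.39 FPKM in CON and 7.82 FPKM in HG (log2FC -0.25, adjusted p = 0.417). Atp5hl1 (306478) had at most 3 reads in a library and stood just above the filter (adjusted p = 0.431).

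Libraries differed in how their values varied with gene length, and in CON2 and HG5 they were relatively high in short genes. Over the 65 subunit genes, the log2 difference of CON2 from the mean of the other CON libraries had a correlation of -0.57 with log2 gene length, and that of HG5 from the other HG libraries one of -0.46, as a description across genes that share these libraries. In the other 8 libraries the correlation had the opposite sign, from 0.02 in HG3 to 0.47 in CON1 and 0.53 in HG1, each taken against a mean that includes CON2 or HG5. The SD of the difference over the genes was 0.16 in CON2 and 0.17 in HG5, and 0.06 to 0.10 in the others. Among all genes tested that were shorter than 600 bases, the median of this difference was 0.17 for CON2 and 0.10 for HG5. The 2 subunit genes that did not pass the test were of this kind. Ndufs6 (29478), a zinc-binding subunit of complex I with 351 bases, had 34.6, 65.6, 33.1, 36.5 and 36.2 FPKM in CON and 27.3, 26.7, 29.2, 33.1 and 51.6 FPKM in HG (log2FC -0.29, adjusted p = 0.287). Atp5me (140608), a small membrane subunit of ATP synthase with 289 bases, had 674, 906, 640.2, 677 and 657 FPKM in CON and 541, 520.4, 578, 609 and 705 FPKM in HG (log2FC -0.26, adjusted p = 0.053). In both genes CON2 and HG5 held the highest value of their group. Without these 2 libraries, a choice made after seeing the data, 67 of 70 members were lower against 10.6% of all genes, with a median of -0.28, and Ndufs6 (-0.28, adjusted p = 0.00974) and Atp5me (-0.24, adjusted p = 0.00435) were among them.

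**Figure D5:**
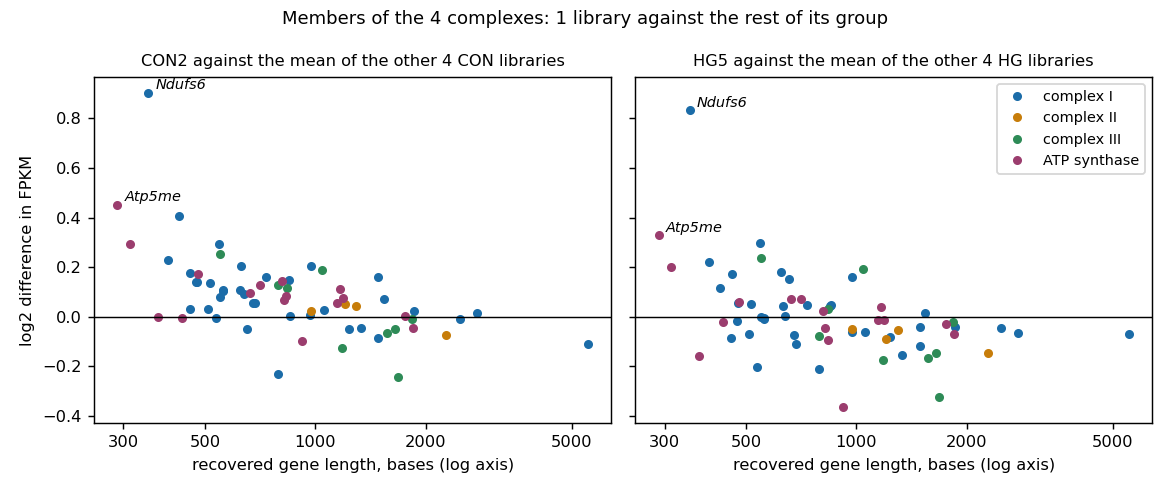
Log2 difference in FPKM of CON2 (left) and HG5 (right) from the mean of the other 4 libraries of their group, against gene length in bases recovered from the FPKM steps (log axis), for the 65 subunit genes coloured by complex. Points below 600 bases lie mostly above 0 in CON2, and Ndufs6 is the highest point in both panels, at 0.90 and 0.83.

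Genes that serve the complexes were examined next, beside 11.8% lower and 28.4% higher among all genes. Of 34 assembly factors of the 4 complexes, which build them but are not part of them, 15 were lower and 0 higher, with a median of -0.16, and 23 were lower both under median-of-ratios factors (17.5% of all genes) and in the quantile-normalized data (15.9%). Among these, Ndufaf6 of complex I went from 29.6 to 20.8 FPKM (log2FC -0.52, adjusted p = 0.00658), Sdhaf1 of complex II stood at a log2FC of -0.44 (adjusted p = 0.000971), Uqcc1 of complex III one of -0.34 (adjusted p = 8.94e-05) and Tmem70 of ATP synthase one of -0.27 (adjusted p = 0.000239). Of 15 nuclear genes of complex IV, which passes electrons from cytochrome c to oxygen, 12 were lower and 0 higher, with a median of -0.31. Cox4i1 fell from 1325 to 998 FPKM (log2FC -0.41, adjusted p = 3.12e-05), and the heart and muscle form Cox6a2 from 546 to 336 FPKM (log2FC -0.71, adjusted p = 0.000278).

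Of 20 electron carriers and enzymes that feed them, 9 were lower and 3 higher, beside 11.8% lower and 28.4% higher among all genes. Higher were 2 with median-of-ratios factors (2271 of all 14542 genes), 2 in the quantile-normalized data (2615) and 1 with the length trend removed (2365). Among the 3, Coq2 rose as deposited (log2FC 0.16, adjusted p = 0.0183) but passed the test under none of these scalings. Cycs, cytochrome c, had a log2FC of -0.36 (adjusted p = 0.000792), Coq9 of ubiquinone synthesis one of -0.42 (adjusted p = 4.02e-05) and Etfdh, which passes electrons from fatty acid oxidation to ubiquinone, one of -0.35 (adjusted p = 3.54e-05). Gpd2 and Dhodh, which also reduce ubiquinone, rose (log2FC of 0.33 and 0.28, adjusted p = 0.00603 and 0.00211), both from under 10 FPKM, although Gpd2 did not pass the test with the length trend removed (adjusted p = 0.0583). Of 8 genes for the exchange of ATP, ADP and phosphate, 7 fell, and 5 after quantile normalization (15.9% of all genes lower). Vdac2 and Vdac3 did not pass the test there. Those that fell included Slc25a4, the heart form of the ADP/ATP carrier, from 1954 to 1327 FPKM (log2FC -0.56, adjusted p = 1.81e-06). The phosphate carrier Slc25a3 (log2FC -0.44, adjusted p = 2.20e-05) and the mitochondrial creatine kinase Ckmt2, from 16.2 to 4.46 FPKM (log2FC -1.82, adjusted p = 3.58e-06), were also among them. Of 15 genes for the assembly of iron-sulfur clusters, which complexes I, II and III carry, 5 fell and 2 rose, with Glrx5 at -0.63 (adjusted p = 1.39e-06). With median-of-ratios factors 8 fell and 1 rose, beside 2551 lower and 2271 higher among all 14542 genes.

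Of 20 regulators of mitochondrial biogenesis, 3 were lower and 4 higher, with a median of -0.02, beside 11.8% lower and 28.4% higher among all genes. The counts turned with the scaling, as did those of all genes. Under median-of-ratios factors 5 regulators were lower and 1 higher (of all 14542 genes, 2551 lower and 2271 higher). The quantile-normalized data gave 5 lower and 1 higher (all genes, 2317 and 2615). With the length trend of each library removed, a choice made after seeing the data, 6 were lower and 1 higher (all genes, 2554 and 2365). Esrra, the estrogen-related receptor alpha that drives many genes of oxidative phosphorylation, fell from 39.2 to 31.8 FPKM (log2FC -0.30, adjusted p = 0.000269), and Ppara, a receptor for fatty acids, from 9.37 to 4.96 FPKM (log2FC -0.90, adjusted p = 2.50e-05). Ppargc1a, the coactivator of both, stood at 13.0 FPKM in CON and 12.1 in HG (log2FC -0.10, adjusted p = 0.272). It passed the test as lower under each of the other 3 scalings, at -0.19 with median-of-ratios factors (adjusted p = 0.0362), -0.19 after quantile normalization (adjusted p = 0.0435) and -0.20 with the length trend removed (adjusted p = 0.0123). Tfam, which packs mitochondrial DNA, stood at 40.7 and 42.9 FPKM (log2FC 0.07, adjusted p = 0.194). Gabpa, Gabpb1, Nrf1 and Pprc1 rose by 0.14 to 0.26 on the log2 scale, and of these only Gabpa passed the test as well under median-of-ratios factors (0.17, adjusted p = 0.0272), quantile normalization (0.18, adjusted p = 0.0255) and removal of the length trend (0.15, adjusted p = 0.0396).

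Because Esrra, Nrf1 and Gabpa act on DNA, the promoters of the subunit genes were searched for the short motifs of these factors and of YY1, on both strands. A RefSeq window of 300 bases (250 before the start and 50 after, rat build GRCr8) was at hand for 61 of the 71 members and for 58 of the 65 subunit genes. The NRF1 core GCGCATGCG was in 6 of the 58 windows (10.3%), against 2.89% of the 13372 windows of tested genes. The ERR element TCAAGGTCA was in 2 (3.45%, against 0.329%), the YY1 motif AAGATGGCG in 10 (17.2%, against 3.09%) and the ETS motif CCGGAAGT, which GABP binds, in 6 (10.3%, against 7.11%). At least 1 of the 4 motifs was in 23 windows (39.7%, against 12.6%). With any base allowed in the middle of the NRF1 core (GCGCANGCG, added after the sequences were seen, and including every match of the stricter core), 17 windows matched (29.3%, against 11.5%). Such matches are a description of letters and do not show binding. Their relation to the change in mRNA was not tested.

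The 250 bases before the start are shown for the 3 c ring genes, which encode 1 protein and fell to unlike degrees, for Atp5if1, which did not pass the test, and for Sdha of complex II. They read 5′ to 3′ along the gene, with matches to any of the 5 patterns, on either strand, in capitals. The window of Atp5mc1 (chr10:81523346-81523595, minus strand) held no match and neither did that of Atp5if1 (chr5:150026678-150026927, minus strand). Atp5mc2 (chr7:135678219-135678468, minus strand) held the NRF1 core, which reads nearly the same on both strands, Atp5mc3 (chr3:79220665-79220914, minus strand) the ERR element on the opposite strand, and Sdha (chr1:30764303-30764552, plus strand) the looser NRF1 core at 2 places.
Atp5mc1: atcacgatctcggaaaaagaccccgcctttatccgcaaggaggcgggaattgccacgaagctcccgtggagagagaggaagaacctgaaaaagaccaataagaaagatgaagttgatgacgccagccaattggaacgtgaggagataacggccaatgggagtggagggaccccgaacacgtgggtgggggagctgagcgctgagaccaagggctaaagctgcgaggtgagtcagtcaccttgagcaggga
Atp5mc2: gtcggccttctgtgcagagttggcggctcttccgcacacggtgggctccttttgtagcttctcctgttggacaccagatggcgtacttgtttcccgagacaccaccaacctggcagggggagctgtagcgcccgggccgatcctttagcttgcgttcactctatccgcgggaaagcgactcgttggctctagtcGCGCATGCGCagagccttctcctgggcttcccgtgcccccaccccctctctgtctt
Atp5mc3: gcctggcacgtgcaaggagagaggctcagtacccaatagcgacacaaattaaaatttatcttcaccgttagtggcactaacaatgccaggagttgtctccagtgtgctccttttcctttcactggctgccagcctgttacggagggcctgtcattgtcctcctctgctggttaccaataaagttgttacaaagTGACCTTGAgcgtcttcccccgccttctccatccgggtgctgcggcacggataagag
Atp5if1: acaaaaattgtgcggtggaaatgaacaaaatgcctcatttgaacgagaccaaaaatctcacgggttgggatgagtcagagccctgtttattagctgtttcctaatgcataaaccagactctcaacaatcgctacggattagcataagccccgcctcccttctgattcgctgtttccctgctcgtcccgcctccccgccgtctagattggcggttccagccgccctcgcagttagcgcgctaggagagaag
Sdha: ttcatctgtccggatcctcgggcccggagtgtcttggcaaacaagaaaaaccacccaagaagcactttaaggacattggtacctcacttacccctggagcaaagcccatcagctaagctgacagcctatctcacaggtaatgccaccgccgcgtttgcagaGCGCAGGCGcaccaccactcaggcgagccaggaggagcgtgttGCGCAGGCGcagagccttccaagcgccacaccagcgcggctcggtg

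Markers of heart muscle cells moved with the members. The marker counts stand beside 11.8% lower and 28.4% higher among all genes, where 70.7% of called genes were higher as deposited. Of all 14542 genes, 2551 were lower and 2271 higher under median-of-ratios factors. After quantile normalization these counts were 2317 and 2615, and with the length trend removed 2554 and 2365. Of 12 cardiomyocyte markers, 10 were lower and 1 higher, with a median log2FC of -0.36, and their summed FPKM ranged from 21923 to 23239 in CON and from 18104 to 21406 in HG. The structural genes Tnnt2 (3953 FPKM in CON and 3246 in HG), Myl2 (6739 and 5099.6) and Myh7 (2639.6 and 2126) were abundant in both groups, as heart tissue requires, with log2FC of -0.29, -0.41 and -0.31. Nppa, the atrial natriuretic peptide, rose (log2FC 0.71, adjusted p = 0.000797). After quantile normalization 7 of the 12 markers were lower. Myh7 was among them (-0.19, adjusted p = 0.00735), while Tnnt2 (-0.08, adjusted p = 0.574) and Myl2 did not pass the test. Of the 6 endothelial markers, 0 were lower and 1 (Tie1) was higher, with sums from 232 to 251 in CON and from 236 to 259 in HG. With median-of-ratios factors and with the length trend removed, Tie1 did not pass the test and Pecam1 was lower (adjusted p = 0.0171 and 0.00849). Of the 6 fibroblast markers 2 were lower and 2 higher, with sums from 1500.1 to 1726 and from 1392 to 1579.6, and under the same 2 scalings 4 were lower and 2 higher.

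The counts of the remaining lists also stand beside 11.8% lower and 28.4% higher among all genes. Under the other 3 scalings they stand beside the counts of all genes given above. Smooth muscle and pericyte markers (2 of 6 higher, 1 lower) summed to 695 to 807 FPKM in CON and 853 to 1083 in HG. Macrophage markers (3 of 6 higher, 0 lower) summed to 28.3 to 35.1 and 33.0 to 43.4, and epicardial markers (1 of 4 higher, 0 lower) to 18.3 to 20.8 and 21.2 to 26.2. All 4 cycling genes were higher, with sums from 206 to 234 in CON and from 295 to 328 in HG. Erythroid markers (4 of 6 lower, 0 higher) summed to 60.04 to 110.04 and 40.6 to 58.2, and the list for skeletal muscle (2 of 4 tested genes lower, 1 higher), whose leading genes Ckm and Acta1 the fetal heart also expresses, to 3246 to 3661 and 1972 to 2688, while Myod1 was below the filter. Liver markers (4 of 4 lower) summed to 3.12 to 73.0 FPKM in CON, the highest in CON3, and to 0.852 to 2.40 in HG. Under at least 1 of the other 3 scalings the counts were 2 lower for smooth muscle and pericyte, 2 higher for macrophage, 5 lower for erythroid, 1 lower for skeletal muscle and 2 lower for liver markers. The part of these cell types in the decrease of the members was not tested.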

How the data were processed

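RNA-seq of fetal hearts (5 CON and 5 HG libraries) was used as deposited. The authors made stranded mRNA libraries and deposited FPKM, that is read numbers divided by gene length and library size. The submitters' processing notes name fastp, HISAT2, HTSeq, R 3.2.0 and build mRatBN7.2. All per-sample columns were used (0 unused).

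After a filter at a mean FPKM of 0.1, limma 3.58.1 (R 4.3.3, variance trend, no covariate) was fitted to log2(FPKM + 0.1) of both groups, with Benjamini-Hochberg adjustment over 14542 genes. Fold changes on this scale understate those of low genes. The count test of the Methods was not used, since the deposited values are FPKM. Reads were recovered from the FPKM steps (99.9861% of values whole within 0.02 read, at 18025 of 18025 genes) for voom as an alternative, which called 4232 genes higher and 1727 lower. The model and the recovery were also run on simulated counts. These were drawn independently for each library, without the length trend seen in CON2 and HG5, so they do not cover such effects.

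Members and lists were chosen with earlier results of these data known. Genes were named by rule: catalytic and redox subunits, paralogues and the inhibitor, the 8 largest decreases (no member rose), the most abundant gene per complex and genes that missed the threshold. Of the genes under this rule, 1 is not reported here. Genes of other lists, Ndufa7, Ndufs4 and Uqcrb were named after their values were seen. Alternatives varied the pseudocount (1 or 0.01), the filter (none or 1 FPKM), the scaling of libraries, the variance model, covariates (a replicate block or Y chromosome genes), hemoglobin genes and the libraries included, and 2 of them (length trend removed, CON2 and HG5 left out together) were added after the data were seen. Promoter windows are RefSeq sequences of build GRCr8, matched by gene identifier for 60 members and by symbol for 1.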

Additional observations from a re-analysis of the deposited data

Results flagged for a closer look

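In 8 of the 60 sets of 5 values of the 30 members named by rule, 1 library lay far from the other 4 by Dixon's criterion, which chance alone passes in about 1 in 20 sets. In short genes it was CON2 that lay high, with Ndufs6 at 65.6 FPKM against 33.1 to 36.5 in the other CON libraries, Atp5me at 906 FPKM against 640.2 to 677, and Ndufa5 at 306 FPKM against 243 to 255. HG5 lay high in Ndufs6, at 51.6 FPKM against 26.7 to 33.1 in the other HG libraries, and low in Sdha, at 264 FPKM against 289 to 295. The remaining cases were Ndufs1 in CON1 at 325 FPKM (other CON libraries 299.7 to 305), Sdhd in HG4 at 295 FPKM (other HG libraries 264 to 270.3) and the copy gene Ndufa10l1 in HG1 at 8.32 FPKM (other HG libraries 19.4 to 20.6). Without CON2 and HG5, Ndufs6 and Atp5me passed the test, and no other member of the complexes changed its call. The cause was not tested.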

How the results depend on the processing

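No alternative turned the decrease of the members: between 63 and 67 members were lower, 0 were higher and 0 passed 2-fold in each of the 24, and 60 of the 65 subunit genes were lower in all of them. Of 714 values of the 30 members named by rule, 702 kept their direction and their side of the threshold, 10 passed it newly (Atp5me in 9, Ndufs6 in 1), 2 no longer passed it (Atp5f1b and Atp5mc2 after quantile normalization) and 0 reversed. With median-of-ratios factors the number of all genes higher fell to 2271, and the median log2FC was -0.39 for all members, -0.41 for complex I, -0.39 for complex II, -0.44 for complex III and -0.37 for ATP synthase. Under the same factors, 23 assembly factors were lower, 1 regulator was higher and 5 lower, and of the iron-sulfur cluster genes 1 was higher and 8 lower. With quantile normalization 2615 genes were higher, the medians were -0.24 for all members, -0.23 for complex II, -0.26 for complex III and -0.19 for ATP synthase, 23 assembly factors were lower, 1 regulator was higher and 5 lower, and 1 iron-sulfur cluster gene was higher. The length trend of each library was removed as a choice made after seeing the data, which left 2365 genes higher, 1 electron carrier gene, 1 regulator and 1 iron-sulfur cluster gene higher and 6 regulators lower. Array weights made 1 assembly factor and 1 complex IV gene higher. Hemoglobin genes left out gave 2 regulators higher. Without CON2 and HG5, also chosen after seeing the data, 1 iron-sulfur cluster gene was higher.

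Leaving out 1 library at a time gave 64 to 66 members lower, with a median of -0.32 to -0.29, 2 to 4 regulators higher and 0 to 1 complex IV genes higher (1 without CON5 or HG4). The regulators numbered 2 without CON1, CON3, CON4 or HG1. The labels do not say whether replicate numbers mark pairs. Of 5 same-numbered pairs, 1 deviated together with a correlation over 0.1 (from -0.13 to 0.11). In addition, 0 of 5 CON libraries correlated best with their own number. Correlations of 5 pairs cannot exclude pairing. With the replicate number as a block, 64 members were lower, 3566 of all genes were higher and 1530 lower, and 2 regulators were higher. The cause of these shifts was not tested. Short genes and genes with few reads, such as Atp5hl1 with at most 3, limit the precision, and intervals from 5 libraries cover only the spread between them.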
